A study of Mus musculus with 8 samples.

Results

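The T-cell genes described here are Il2ra, Cd3d, Cd3e, Cd3g, Lck, Zap70, Lat, Id2, Gata3 and Bcl11b, 10 of the 21887 protein-coding genes placed on mouse chromosomes in the RefSeq annotation of GRCm38.p6. They were followed through chromatin immunoprecipitation with sequencing (ChIP-seq) of the transcription factor EBF1 and of Brg1 in mouse pro-B cells, which are early B-lineage cells. Every peak was taken whose summit lay in the body of one of these genes, or lay outside all protein-coding genes with one of them as the nearest bound within 100 kb. By this rule 17 peaks belonged to the 10 genes, 16 of them in the Brg1 list after dTAG-13 and 1 in the Brg1 list with DMSO. The genes were chosen by their Brg1 peaks in these lists, with T-cell genes without a peak beside them, so their counts and peak values describe the lists and carry no test.

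The cells had been made to grow in culture with A-MuLV (Abelson murine leukaemia virus), and modified EBF1 genes stood in for the endogenous one. EBF1 was precipitated from the line EBF1-dTAG_C and Brg1 from the line EBF1-dTAG_N. Fixation in 1% formaldehyde lasted 10 min for EBF1 and 15 min for Brg1, and the antibody amounts were 4 µg and 0.5 µg. A dTAG is a degron, through which the small molecule dTAG-13 directs the tagged protein to degradation. Each line was given 0.5 µM dTAG-13 for 6 h or DMSO, and there was 1 library per group. The labels do not say whether a line is a single clone. The treatment label gives 6 h of DMSO for the controls, whereas their titles give 0 h. No difference between conditions therefore has a replicate check, and EBF1 itself was not mapped in the line used for Brg1.

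Brg1, encoded by Smarca4, is the ATPase of the BAF complex, which moves and evicts nucleosomes at enhancers and promoters. The T-cell receptor signals through the CD3 chains, which Lck phosphorylates, after which Zap70 docks on them and phosphorylates the scaffold Lat. Il2ra is the alpha chain of the interleukin-2 receptor (CD25), which is also found on pre-B cells. Id2 inhibits the E proteins that B-cell development needs, and Gata3 and Bcl11b are factors of T-cell commitment. EBF1 is known to restrain genes of other lineages, Id2 and Gata3 among them, in B-cell progenitors.

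The cell type named in the labels was set beside 12 pro-B markers, chosen with earlier results of these data known. Of these, 9 had a Brg1 peak after dTAG-13 (Cd79a, Cd79b, Igll1, Vpreb1, Vpreb2, Pax5, Ebf1, Blnk and Il7r) and 5 had one in DMSO, where over all protein-coding genes the shares were 12.2% and 0.818%. EBF1 peaks in DMSO were assigned to 6 of the 12, against 1.28% of all protein-coding genes. Of 10 T-cell markers, Cd3d and Lck had a Brg1 peak after dTAG-13 and none had one in DMSO, so 2 of 10 lies near the background of 12.2%. Those T-cell markers include 6 of the genes described here, Cd3d and Lck among them. The marker counts are therefore no independent check of the cell type. A peak does not show that a gene is transcribed, and no expression was measured here.

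Among the 16 Brg1 peaks after dTAG-13, only those of Lat and Lck reached the promoter window of a T-cell gene, taken as 250 bases before to 50 after a RefSeq start site. These windows are shown first, in lower case with the bases inside a Brg1 peak in capitals, 5′ to 3′ on the strand of the gene, from RefSeq on GRCm38.p6. The Lat window (chr7:126369519-126369818, minus strand) lay in the peak for 250 of its 300 bases. Lck has a start site at the 5′ end of the gene and another inside it, in front of the coding part, known as the distal and the proximal promoter. The proximal window (chr4:129558323-129558622, minus strand) lay between 2 peaks that covered 81 of its bases, and the distal window (chr4:129573592-129573891, minus strand) was 14582 bp from the nearest one. The last sequence is the window of the noncoding RNA gene Gm36496 (chr12:25190795-25191094, minus strand), of which 92 bases lay in a peak assigned to Id2.
Lat: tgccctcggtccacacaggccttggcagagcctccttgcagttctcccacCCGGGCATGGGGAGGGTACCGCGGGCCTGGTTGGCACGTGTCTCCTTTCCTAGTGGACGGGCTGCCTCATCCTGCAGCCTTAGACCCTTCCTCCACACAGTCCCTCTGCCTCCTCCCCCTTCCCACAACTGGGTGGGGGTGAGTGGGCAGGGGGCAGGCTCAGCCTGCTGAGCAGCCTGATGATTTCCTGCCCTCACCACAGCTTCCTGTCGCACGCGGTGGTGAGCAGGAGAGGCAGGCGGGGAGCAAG
Lck proximal: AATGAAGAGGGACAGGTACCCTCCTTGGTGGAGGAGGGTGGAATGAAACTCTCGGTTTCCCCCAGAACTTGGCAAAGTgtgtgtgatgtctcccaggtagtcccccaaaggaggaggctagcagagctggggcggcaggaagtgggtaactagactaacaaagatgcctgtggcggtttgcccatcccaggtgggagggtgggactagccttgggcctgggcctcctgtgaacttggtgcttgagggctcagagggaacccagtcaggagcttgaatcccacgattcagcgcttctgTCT
Lck distal: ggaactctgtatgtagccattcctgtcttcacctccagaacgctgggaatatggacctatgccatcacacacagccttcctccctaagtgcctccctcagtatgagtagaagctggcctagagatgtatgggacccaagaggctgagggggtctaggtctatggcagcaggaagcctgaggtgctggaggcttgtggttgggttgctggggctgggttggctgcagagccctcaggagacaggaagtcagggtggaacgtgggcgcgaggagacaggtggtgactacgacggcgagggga
Gm36496: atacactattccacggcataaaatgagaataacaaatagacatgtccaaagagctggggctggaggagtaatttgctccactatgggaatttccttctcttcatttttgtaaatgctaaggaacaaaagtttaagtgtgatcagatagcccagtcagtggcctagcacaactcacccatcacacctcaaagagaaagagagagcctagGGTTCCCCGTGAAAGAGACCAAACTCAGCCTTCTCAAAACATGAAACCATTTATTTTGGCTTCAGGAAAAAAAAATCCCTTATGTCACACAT

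No peak of either EBF1 list was assigned to any of the 10 genes. In DMSO an EBF1 peak was assigned to 281 of the 21887 protein-coding genes (1.28%), and after dTAG-13 to 5 (0.0228%), so a count of 0 among 10 genes lies near the background. The nearest EBF1 summit to any of the 10 genes in DMSO was 90.1 kb upstream of Il2ra and lay inside Pfkfb3, a regulator of glycolysis, with an authors' fold enrichment of 5.74. The next nearest was 427 kb from Lck, and for Cd3e, the nearest of the 3 CD3 genes to an EBF1 peak, the distance was 9637 kb. None of the 16 Brg1 peaks after dTAG-13 overlapped an EBF1 peak, as against 57 of all 5206 such peaks (1.09%), a share at which no overlap among 16 peaks says little.

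Brg1 peaks in DMSO were assigned to Il2ra alone of the 10 genes, where 179 of the 21887 protein-coding genes (0.818%) had one. After dTAG-13 they were assigned to 6 of the 10 genes: Il2ra with 8 peaks, Id2 with 3, Lck with 2, and Cd3d, Zap70 and Lat with 1 each. The background in that list was 2671 of 21887 genes (12.2%), and since these genes were chosen for such peaks nothing is read from the difference. Cd3e, Cd3g, Gata3 and Bcl11b had no peak in any of the 4 lists. The plot of summits along the 10 genes shows where each peak lay.

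**Figure D1:**
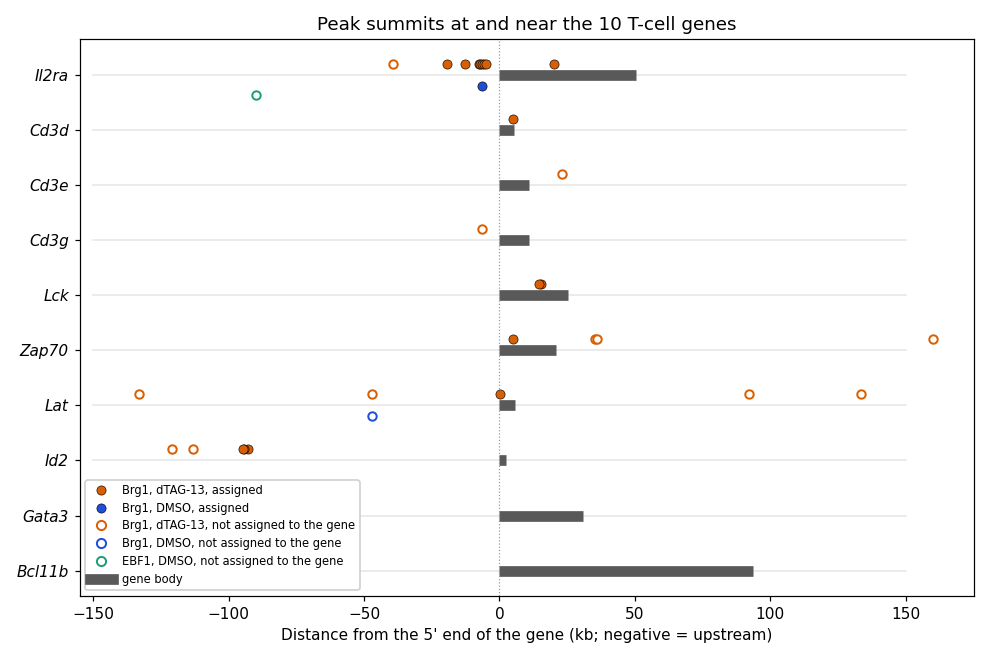
Peak summits of the 4 lists at the 10 T-cell genes, by distance from the 5′ end of each gene in kb with upstream to the left; filled circles are peaks assigned to the gene, open circles are peaks within 150 kb of it that went to another gene or to none, and grey bars are gene bodies. Il2ra carries 8 of the 16 Brg1 peaks after dTAG-13 and the only one in DMSO, Gata3 and Bcl11b have no summit in view, and the EBF1 dTAG-13 list has none at any of the 10 genes.

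The receptor gene Il2ra (chromosome 2, 11642792 to 11693194, plus strand) held the largest group. In DMSO its peak spanned 11636388 to 11636630, with the summit 6284 bp upstream of the start site and 11 fragments there (95% Poisson interval 5.49 to 19.7, for counting error only) over a local background of 0.785 fragments per base. The authors' fold enrichment of this peak was 6.72 and it ranked 145 of 234 in its list. It was thus a peak of middling height in a list whose median fold enrichment was 6.50.

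After dTAG-13 the stretch around that site held 5 separate Brg1 peaks between 11635162 and 11637947. Their summits lay 7464, 7024, 6506, 5700 and 4936 bp upstream of the start site, with 14, 16, 21, 29 and 22 fragments. The authors' fold enrichments were 4.10, 4.34, 5.38, 4.37 and 4.44 in the same order. The 5 peaks covered 1825 of 2786 bp, so they form a broad interrupted stretch and not a single summit. In the whole dTAG-13 list 13 of 5206 peaks (0.25%) had at least 4 other summits within 3 kb, and these 5 were among them. The rest were 3 assigned to Cd69, a lymphocyte activation marker, 1 each assigned to Abcg1 and Oxsm and 3 assigned to no gene. The limits of 4 other summits and 3 kb fit the 5 Il2ra peaks themselves, so nothing is read from this share.

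The DMSO peak overlapped the middle of the 5 peaks by 182 bp, 74.9% of the DMSO peak and 44.4% of the other, and the summits were 222 bp apart. That middle peak had 21 fragments (upper bound of the 95% Poisson interval 32.1) over a local background of 3.09, against 11 over 0.785 in DMSO. The fold enrichments of 6.72 and 5.38 each refer to their own library, and no change in height is read from them. It was the only 1 of the 16 peaks to overlap a DMSO peak, against 126 of all 5206 (2.42%). Of all DMSO Brg1 peaks, 127 of 234 (54.3%) overlapped a peak after dTAG-13. With a reciprocal overlap of at least 50% the Il2ra peak was no longer counted as found again.

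Further out, Brg1 summits after dTAG-13 stood 12809 bp and 19435 bp upstream of Il2ra, with 22 and 20 fragments and ranks of 857 and 3715 in the list. A last one lay in the Il2ra body, 20187 bp downstream of the start site, with 16 fragments and the lowest fold enrichment of the 16 peaks, 2.82 (rank 5122 of 5206). The Il2ra promoter window itself was 4595 bp from the nearest peak. A further peak 39.3 kb upstream fell to Rbm17, a splicing factor gene, 279 bp from its bound. The plot of Il2ra peaks sets both conditions over the same stretch.

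**Figure D2:**
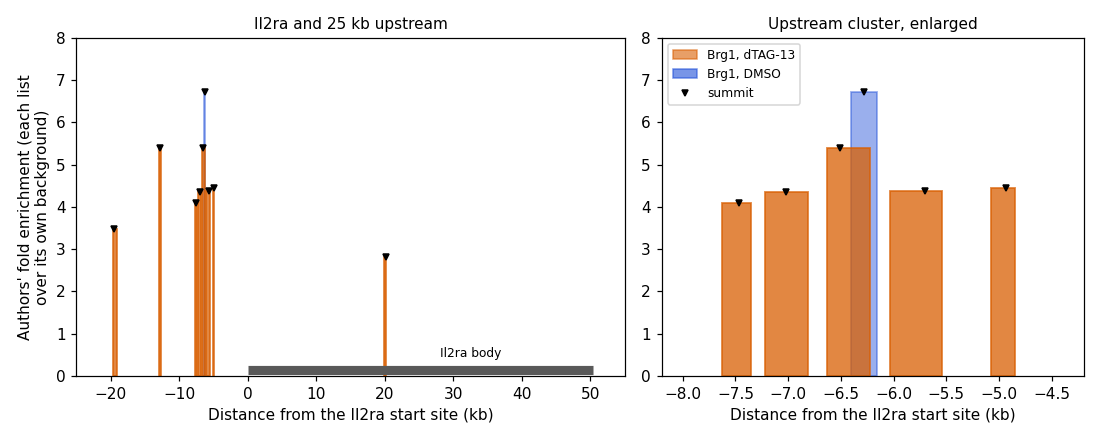
Brg1 peaks assigned to Il2ra, with distance from the start site in kb on the x axis and the authors' fold enrichment on the y axis; each bar spans a peak, triangles mark summits, and the right panel enlarges the upstream stretch. The DMSO peak (6.72) overlaps the middle of 5 dTAG-13 peaks, whose values run from 4.10 to 5.38; the values refer to each library's own background.

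Among the CD3 chains, Cd3d (chromosome 9, 44981769 to 44987052, plus strand) had the only peak. The 3 genes lie side by side and encode the delta, epsilon and gamma chains, which are among the chains that carry signalling motifs in the T-cell receptor complex. The Brg1 peak after dTAG-13 spanned 44986687 to 44986958, inside Cd3d and 306 bp before its 3′ end, 4960 bp from the start site. It had 18 fragments at the summit (95% Poisson interval 10.7 to 28.4), a fold enrichment of 4.85 and rank 1898 of 5206. The same summit was 6315 bp from Cd3g and 11989 bp from Cd3e, which share it as their nearest Brg1 peak, so the 3 CD3 genes rest on 1 peak. In DMSO the Brg1 peak nearest to any of them was 9664 kb away from Cd3g.

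Lck, the Src-family kinase that starts T-cell receptor signalling (chromosome 4, 129548344 to 129573641, minus strand), had 2 Brg1 peaks after dTAG-13, both at the proximal start site shown above. The first, 129558092 to 129558325, had its summit 130 bp downstream of that site with 14 fragments and a fold enrichment of 4.77. The second, 129558545 to 129559010, had its summit 592 bp upstream with 12 fragments, the fewest of the 16 peaks, and a fold enrichment of 3.47. Both summits lay below the middle of the list, at ranks 2834 and 4978 of 5206. The neighbours Hdac1, a histone deacetylase gene 5.70 kb away, and Fam167b had no peak in any list.

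Zap70, the kinase that binds phosphorylated CD3 chains (chromosome 1, 36761798 to 36782821, plus strand), had 1 Brg1 peak after dTAG-13 at 36766460 to 36766900. Its summit held 22 fragments (95% Poisson interval 13.8 to 33.3), with a fold enrichment of 6.55 and rank 470 of 5206. It lay 2260 bp downstream of the nearest of the 3 RefSeq start sites of the gene, and no Zap70 promoter window was closer to a peak than 1896 bp. Tmem131, the next gene, held 2 further peaks 14.3 and 14.9 kb from Zap70.

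Lat, the membrane scaffold that Zap70 phosphorylates (chromosome 7, 126363827 to 126369705, minus strand), had 1 Brg1 peak after dTAG-13, at 126369509 to 126369768. Its summit was 71 bp upstream of the start site with 17 fragments (95% Poisson interval 9.90 to 27.2), a fold enrichment of 5.72 and rank 1216 of 5206. That start site, at 126369568, lies inside the annotated gene, so the summit also counts as inside the gene body. It was the only one of the 16 summits inside a promoter window of a T-cell gene. In all, 397 of 17492 protein-coding genes with a promoter window (2.27%) had it overlapped by a Brg1 peak after dTAG-13, and 5 (0.0286%) in DMSO. Among the 10 T-cell genes it was Lat and Lck after dTAG-13 and none in DMSO.

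Id2, the inhibitor of E proteins (chromosome 12, 25093799 to 25096092, minus strand), had 3 Brg1 peaks after dTAG-13, all far upstream of the gene. The first, 25188694 to 25189835, was the widest of the 16 peaks (1142 bp) and had their highest fold enrichment, 7.64, with 25 fragments (95% Poisson interval 16.2 to 36.9) and rank 207 of 5206. The others had 21 and 16 fragments and fold enrichments of 5.16 and 4.76. Their summits stood 93.0, 94.2 and 94.7 kb from Id2, inside the noncoding genes Gm36287 and Gm36496. The Id2 promoter window was 92352 bp from the nearest of them.

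These 3 peaks passed the 100 kb limit narrowly, and 2 more lay just outside it. Those were 113 and 121 kb upstream of Id2, with 18 and 17 fragments and fold enrichments of 4.85 and 4.14, and were assigned to no gene although Id2 was the nearest. With a limit of 20 or 50 kb Id2 had no peak, so its count depends on that limit. In DMSO the nearest Brg1 peak to Id2 was 8587 kb away.

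Gata3 and Bcl11b, the factors of T-cell commitment, had no Brg1 or EBF1 peak nearby. The nearest Brg1 summit after dTAG-13 was 265 kb from Gata3 and was assigned to Itih5, and 627 kb from Bcl11b and was assigned to Evl. Neither gene is short of room: the body and the flanks from which a gene could draw peaks came to 144 kb for Gata3 and 245 kb for Bcl11b. Of protein-coding genes with 100 to 200 kb of such room 17.8% had a Brg1 peak after dTAG-13, and of those with 200 to 400 kb 18.9%, so most genes of this size had none either. The share was 5.53% for 0 to 20 kb, the class of Cd3d and Cd3g, 9.76% for 20 to 50 kb, that of Cd3e, Lck, Zap70 and Lat, and 15.3% for 50 to 100 kb, that of Il2ra.

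Room was set against the peaks of the other genes in the same way. Il2ra had 10.5 Brg1 peaks after dTAG-13 per 100 kb of room, Cd3d 8.48, Lck 6.73, Zap70 3.62, Id2 2.55 and Lat 2.47, while Cd3e, Cd3g, Gata3 and Bcl11b had 0. The 10 genes together had 2.16 per 100 kb, against 0.250 over all protein-coding genes, and since they were chosen for such peaks nothing is read from the difference. At least 8 peaks, the number at Il2ra, were assigned to 38 of 21887 genes (0.174%), and at least 3, the number at Id2, to 495 (2.26%). These limits are the counts of the chosen genes themselves and the shares are not matched for room, so nothing is read from them either. Of the 16 protein-coding genes next to the 10, Rbm17, Tmem131, Sbk1 and Celf2 had a Brg1 peak after dTAG-13 and none had one in DMSO. The shares over all protein-coding genes were 12.2% and 0.818%, and the difference was not tested. Here next to means next in gene order at any distance. Tmem131 lay 9.37 kb from Zap70, Rbm17 39.6 kb from Il2ra, Sbk1 68.8 kb from Lat and Celf2 2461 kb from Gata3.

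Within the dTAG-13 list the 16 peaks were of ordinary height. Their median fold enrichment was 4.76 (lowest 2.82, highest 7.64) against 4.45 over the list, and their median summit held 19 fragments (12 to 29) against 18. By −log10 p, 10 of the 16 stood above the middle of the list, led by the first Id2 peak (rank 207), the Zap70 peak (470) and 3 Il2ra peaks (857, 880 and 959). Of the 16, 6 lay inside a gene body and 10 outside, where over the whole list 52.1% of peaks lay inside protein-coding genes and 39.1% outside but within the limit of one. The 6 fell in 5 genes, Il2ra, Cd3d, Lck, Zap70 and Lat, against 7.99% of all protein-coding genes with a summit in the body. The plot of fragments against fold enrichment places the 16 among all peaks of the list.

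**Figure D3:**
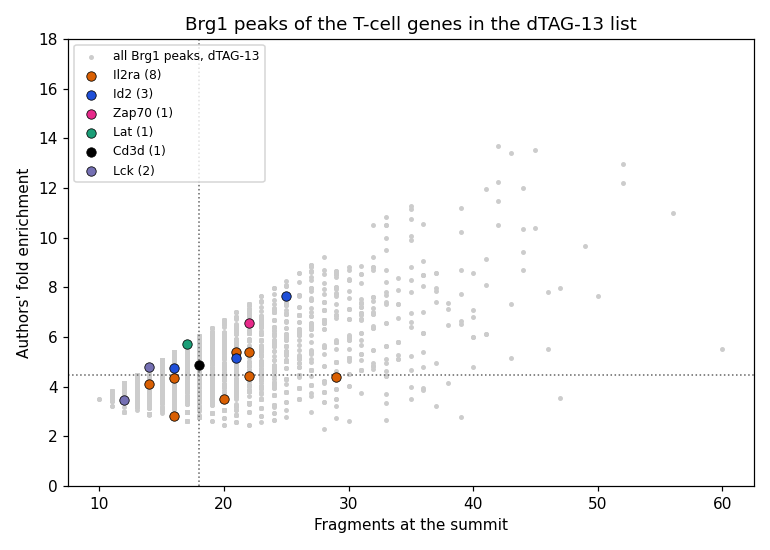
Brg1 peaks after dTAG-13, with fragments at the summit on the x axis and the authors' fold enrichment on the y axis; grey points are all peaks of the list with at most 60 fragments (8 peaks lie beyond), coloured points the 16 peaks of the T-cell genes, and dotted lines the medians of the list, 18 fragments and 4.45. The coloured points lie on both sides of both medians, with the first Id2 peak highest at 7.64.

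Depth differed between the Brg1 libraries. The lowest local background, which stands for the genome-wide level, was 0.607 fragments per base in DMSO, and the dTAG-13 value of 2.15 was 3.54 times as high. Scaled down by that ratio, the 16 summits would have held 3.39 to 8.20 fragments, and these were rounded down before −log10 p was computed again. With a −log10 p of 6.21, only the first Id2 peak would then have passed 5.89, the lowest value among DMSO peaks. Of all 5206 peaks, 194 (3.73%) would have passed it. The Id2 peak passed narrowly, and its 25 fragments have a 95% Poisson interval of 16.2 to 36.9 before scaling. Its absence from the DMSO list is therefore not read as a difference. The other 15 of the 16 peaks would have fallen short of 5.89. For the 14 of these that overlap no DMSO peak, a difference from DMSO was not detectable at this depth. The exception is the middle Il2ra peak, which scales to 5.94 fragments and a −log10 p of 3.53, whereas the DMSO peak it overlaps was called there with 11 fragments and a −log10 p of 10.3. The scaled 5.94 lay inside the 95% Poisson interval of the DMSO count (5.49 to 19.7), and the counting error of the dTAG-13 peak comes on top. The summits compared were 222 bp apart, and the DMSO count is the height of a called peak. No direction of change is therefore read at that site.

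Brg1 was also followed over other genes of T-cell and related programmes, lists that were set with earlier results of these data known. Of 24 T-cell receptor signalling genes 8 had a Brg1 peak after dTAG-13 and 2 in DMSO, against backgrounds of 12.2% and 0.818%. Grap2, an adaptor that binds Lat and Lcp2, had its DMSO peak inside the gene with a fold enrichment of 9.86 (rank 37 of 234) and 3 peaks after dTAG-13, the highest at 4.84. Rasgrp1, which activates Ras below the receptor, had a DMSO peak 62.7 kb away at 7.62 and 2 peaks after dTAG-13, the higher at 4.67. The phosphatase genes Ptpn22 (4 peaks after dTAG-13, the highest at 7.20) and Ptprc (3 peaks, 6.50) are at work in B cells too. The adaptor gene Lcp2 (3.91), Sh2d2a (3.57) and the costimulatory receptor gene Cd28 (4.37) had peaks after dTAG-13 only. Csk, the kinase that restrains Lck and its kin, had 2 Brg1 peaks after dTAG-13 (the higher at 4.51) and an EBF1 peak in DMSO (5.04).

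Of 19 T-cell commitment and identity factors 7 had a Brg1 peak after dTAG-13 and none in DMSO, against backgrounds of 12.2% and 0.818%. At that DMSO share, no peak among 19 genes lies near the background. The 7 were Ets1 (5 peaks, the highest at 7.06), Myb (4, 7.40), Runx1 (3, 6.68), Runx3 (1, 5.98), Tcf12 (8, 5.41), Lmo2 (2, 4.60) and Satb1 (1, 3.32), several of which B-cell progenitors are known to use. Tcf7, Notch1, Hes1 and Dtx1, which belong to the Notch-driven T-cell programme, had no peak in any list, whereas Notch3 had an EBF1 peak in DMSO inside the gene (6.98). EBF1 also had a peak 70.9 kb from Satb1 (6.72), and there the Brg1 peak after dTAG-13 stood at 70.9 kb too.

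Of the 11 genes of interleukin-2 family receptors and their signalling, Il7r (3 peaks, the highest at 4.69), Jak1, Jak3 and Stat5b had a Brg1 peak after dTAG-13 and none in DMSO. The backgrounds were again 12.2% and 0.818%, so 11 genes without a DMSO peak lie near the background. Il2rb and Il2rg, the other chains of the interleukin-2 receptor, and Il15ra, the gene next to Il2ra, had none in any list. Among the 6 E-protein and Id genes, Tcf3, Tcf4 (6 peaks, the highest at 9.23), Tcf12 and Id3 had Brg1 after dTAG-13, against the same 12.2%. Id1 and Id4 had none. Id3, the relative of Id2, had an EBF1 and a Brg1 peak in DMSO, both 15.9 kb from the gene, where Id2 had neither.

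For other cell types, 2 of 10 NK and innate lymphoid genes (Klrb1c and Klrk1) and 4 of 15 myeloid genes (Ly6c2, Tlr4, Csf2ra and Fcgr3) had a Brg1 peak after dTAG-13. In DMSO 1 and 3 did. The shares over all protein-coding genes were 12.2% after dTAG-13 and 0.818% in DMSO. The Ly6c2 peak stood on a high local background in both conditions. It had 375 fragments at a fold enrichment of only 1.46 after dTAG-13, and 214 at 2.56 in DMSO. These shares, like those of the T-cell lists, were not tested against each other, and the plot by gene list gives all counts.

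**Figure D4:**
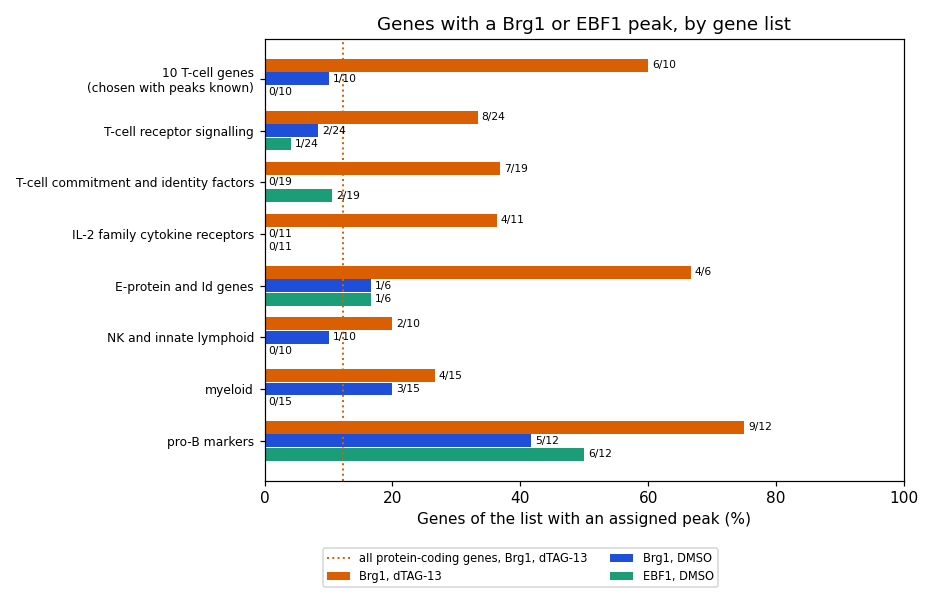
Share of the genes of each list with an assigned peak, in percent, for Brg1 after dTAG-13, Brg1 in DMSO and EBF1 in DMSO; numbers beside the bars are genes with a peak of genes in the list, and the dotted line is the share of all protein-coding genes for Brg1 after dTAG-13 (12.2%). The pro-B markers reach 9 of 12, and the 10 T-cell genes, chosen with their peaks known, 6 of 10.

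The promoter windows of the T-cell genes were searched on both strands for short motifs. All 10 genes had a window, 13 in all, and the background was the 21263 windows of protein-coding genes. The palindromic EBF1 motif was in none of the 13 and in 0.959% of all. The Lck proximal window held GGAAGT, the ETS core (113 bases before the start site, in 24.8% of all windows), AACAAAG, a TCF motif (94 bases before, 5.01%), and CAGGTG, the complement of the E-box CACCTG (63 bases before, 19.7%). All these lay between the 2 Brg1 peaks, in the lower-case part of the sequence shown above. The distal window, without Brg1, held GGAAGT and CAGGTG as well, the Runx motif TGTGGTT (58 bases before, 4.71%) and TGGGAA, the Ikaros core (207 bases before, 24.5%).

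The Lat window held the E-box CANNTG at 2 places, as CACGTG (166 bases before the start site) and as CAACTG (75 bases before), and it held TTCCCA, the complement of TGGGAA (81 bases before). All 3 lay in the capitals, within the Brg1 peak. CANNTG stood in 69.0% of all windows, and CACCTG is one of its forms. The longer ETS motif CCGGAAGT, which contains GGAAGT, was in none of the 13 windows and in 5.15% of all, and AGATAA, the GATA motif, was only in that of Cd3g and in 9.65% of all. A match describes letters in the window and not a bound site.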

How the data were processed

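The submitters' processing notes name MACS2 2.2.7.1, deepTools 3.3.2, SAMtools 1.10 and Bowtie2 2.3.5.1, with the builds GRCm38 and mm10. Their settings, filters and peak-calling controls are not given in the sources used. The 4 immunoprecipitations have 1 deposited peak list each, called per library; the 4 inputs were not analysed here. In each list the authors' fold enrichment is a linear ratio (pileup plus 1 over local background plus 1), and the deposited p and q values are −log10 values. The deposited score is 10 times the −log10 q without its decimals. Another deposited column, the last, gives the summit's distance from the peak start.

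Fragments and local background at Brg1 summits were solved from fold enrichment and p, which gave whole numbers within 0.02 for 100% of peaks. Depth limits precision, with a median summit of 13 fragments in DMSO and 18 after dTAG-13. Summits were assigned to protein-coding genes of GRCm38.p6 as described in the report. Peaks sharing 1 bp or more were taken to overlap. Python 3.11.15, pandas 2.3.3 and scipy 1.17.1 were used, and the steps were tested on simulated data. Genes left out of the planned lists are not reported here. Members and lists were chosen with earlier results of these data known. Named genes are the 10 members and, of each list, those with a DMSO peak and up to 8 with the highest peaks by −log10 p; other genes, named for having no peak or for Cd69, Abcg1 and Oxsm, were chosen after their values were seen.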

Additional observations from a re-analysis of the deposited data

How the results depend on the processing

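With 1 library per group, no result has a replicate check, and depth limits what the DMSO list could show. No paired analysis was possible because each group holds 1 library, so the shared replicate number 1 pairs nothing that could be fitted. The 6 genes and 16 Brg1 peaks after dTAG-13 became 5 genes and 6 peaks when only summits inside gene bodies counted, 5 and 9 from a −log10 q of 5 up, 4 and 6 from a fold enrichment of 5 up, and 1 and 1 from a −log10 q of 10 up, with the list shortened to the DMSO length, or with peaks scaled to the DMSO background; the gene left in the last 3 was Id2. With an assignment limit of 20 or 50 kb they were 5 and 13, and with 150 kb 6 and 18. Of these alternatives, the scaling and the 150 kb limit were chosen after seeing the data. The count of close summits, the measures by room and the shares at the peak counts of Il2ra and Id2 were not planned either. The Il2ra peak in DMSO, the only one there, gave 0 genes and 0 peaks when only summits in bodies counted or from a −log10 q of 10 up, and it was found again after dTAG-13 in 0 cases under a reciprocal overlap of at least 50% and in 1 with summits within 250 bp. EBF1 peaks at the 10 genes stayed at 0 under every alternative run.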
